A study of Mus musculus with 16 samples.

Results

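Growth hormone responsive liver genes were followed as 7 genes, Cyp7b1, Nudt7, Selenbp2, Cyp2d9, Igfals, Socs2 and Cish, measured by 8 of the 20794 probes on the array and forming 7 of 9026 named genes. They were chosen by their liver ratios in these same samples: Cyp7b1, Nudt7, Selenbp2 and Cyp2d9 as male-biased genes with low liver values, and Igfals, Socs2 and Cish as direct targets of growth hormone that had been examined together. Their liver values are therefore a description and carry no test. The tested mice were 4 males heterozygous for HdhQ111, a knock-in that puts an expanded CAG repeat into the mouse huntingtin gene, on C57BL/6J at 18 weeks of age. Liver and brain of each mouse were hybridised on 2-colour cDNA arrays against 1 pool of RNA from 4 wildtype C57BL/6J males of the same age and tissue, with the dyes swapped on the second array. All values are log2 ratios, likely HdhQ111 over wildtype pool, and a mouse's value is the mean of its dye-swapped pair.

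Growth hormone is released by the pituitary and binds its receptor, Ghr, on hepatocytes, where the kinase JAK2 activates the transcription factor STAT5. STAT5 induces Igf1 and Igfals, which build the circulating growth factor complex, and the feedback inhibitors Socs2 and Cish. In male mice the hormone comes in pulses and in females more steadily, and this pattern sets the sex bias of many liver genes, with Cyp7b1, Cyp2d9, Nudt7 and Selenbp2 on the male side. The wildtype pool was a single control sample, so that spread among wildtype mice is not in any value. A whole liver sample also cannot tell fewer hepatocytes from less RNA per hepatocyte.

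The arrays had 19530 to 20584 values each and medians between -0.128 and 0.246. On every array 32 to 183 values were 16.49 to 16.99 in size, which look like ratios against a channel at a floor. No spot intensities were used, so signal over background is unknown, and precision is limited by how many arrays there were. Arrays of the same tissue and dye orientation correlated by Pearson's r of 0.0872 to 0.237. Gene names were taken 11 rows away from their numbering in the platform table. Across 121 row shifts, distant probes of one gene correlated best at 11 rows (mean r 0.102, against 0.042 with no shift and at most 0.0605 at the others). A second measure, the lower scatter of hepatocyte genes in liver than in brain, scored 0.124 at 11 rows, -0.0024 with no shift and up to 0.153 at other shifts, and did not single out this shift. Every gene name below depends on it.

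The sequences before Igfals and Cish are shown because both are textbook STAT5 targets, and a STAT5 site has the letters TTCNNNGAA. These letters read the same on both strands. They occurred in the 250 bases before the start of 2306 of 32851 RefSeq promoters (7.02%, GRCm38.p6). Igfals has 3 annotated starts, and the letters, in capitals, lay 236 to 228 bases before the first and 58 to 50 bases before the second.
Igfals, first start, chr17:24877594-24877843, plus strand: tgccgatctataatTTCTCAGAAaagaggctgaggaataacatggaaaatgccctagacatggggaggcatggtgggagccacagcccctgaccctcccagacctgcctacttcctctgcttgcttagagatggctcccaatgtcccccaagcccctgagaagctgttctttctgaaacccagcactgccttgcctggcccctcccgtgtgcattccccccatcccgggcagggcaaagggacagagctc
Igfals, stretch before the second start, chr17:24878163-24878191, plus strand: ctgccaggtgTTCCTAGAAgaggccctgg
Cish, chr9:107296409-107296658, plus strand: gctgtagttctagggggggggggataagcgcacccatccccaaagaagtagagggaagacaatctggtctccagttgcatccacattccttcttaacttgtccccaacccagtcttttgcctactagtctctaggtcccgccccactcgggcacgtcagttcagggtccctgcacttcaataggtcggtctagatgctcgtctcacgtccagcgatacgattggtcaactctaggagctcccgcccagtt
The Cish window held no match, nor did those of Nudt7, Selenbp2, Cyp2d9 and the third Igfals start, which says only that the letters are not in these windows. Socs2 and Cyp7b1 are named only.

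Among the male-biased members, Cyp7b1, the oxysterol 7-alpha-hydroxylase of the alternative bile acid pathway (chromosome 3, 18071944 to 18243890, GRCm38.p6), had liver values of -0.417, -0.506, -0.356 and -0.62 in mice 1 to 4. The mean was -0.475 ± 0.12 (SD, n = 4 mice), or 0.72 times the wildtype pool. All 4 mice lay below 0, and 2.44% of the probes tested in liver had a lower mean. With HdhQ111 RNA in Cy5 the arrays read -0.039, -0.603, -0.042 and -0.3, and with it in Cy3 they read -0.795, -0.409, -0.669 and -0.943. Cyp7b1 was thus below 0 on all 8 liver arrays, the only member probe of which this held, though its mean was -0.246 in the Cy5 and -0.704 in the Cy3 orientation.

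Nudt7, a peroxisomal hydrolase of coenzyme A (chromosome 8, 114133574 to 114154731), had liver values of -0.44, -0.524, -0.309 and -0.63, with a mean of -0.476 ± 0.14 (SD, n = 4). The mice were all below 0, but the 2 orientations disagreed in size. Its Cy3 arrays read -1.07, -0.971, -0.732 and -0.88, while its Cy5 arrays read 0.191, -0.077, 0.114 and -0.383. The mean of -0.039 in Cy5 against -0.913 in Cy3 was the widest gap of the members in liver, so the low mean of Nudt7 rested on the Cy3 arrays.

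Selenbp2, a selenium binding protein that was first found as an acetaminophen binding protein of mouse liver (chromosome 3, 94693573 to 94704406), had liver values of -0.298, -0.255, -0.462 and -0.78. Its mean was -0.45 ± 0.24 (SD, n = 4), and mouse 4 was the lowest. The orientation means were -0.226 in Cy5 and -0.672 in Cy3, with 3 and 4 of 4 arrays below 0. Its close relative Selenbp1 was at -0.477, -0.337, -0.501 and -0.69, a mean of -0.50 ± 0.14. The lowest mouse was the same in both, and since a cDNA probe may bind both transcripts, the pair cannot be counted as 2 separate genes. In brain their dye orientations ran opposite, with Cy5 and Cy3 means of -0.645 and 0.50 for Selenbp2 and 0.61 and -0.25 for Selenbp1. Shared signal was not tested.

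Cyp2d9, a steroid 16-alpha-hydroxylase of male mouse liver (chromosome 15, 82452377 to 82456827), had liver values of -0.427, -0.636, -0.256 and -0.122, and a mean of -0.36 ± 0.22 (SD, n = 4). It too was below 0 in every mouse, with an orientation mean of -0.095 in Cy5 and -0.62 in Cy3. Other genes of its family had values close to it. Cyp2d12 was at -0.32 ± 0.18 and Cyp2d10 at -0.29 ± 0.21, both below 0 in 4 of 4 mice, and Cyp2d22 at -0.29 ± 0.33. The 2 probes of Cyp2d26 were at -0.38 ± 0.32 and -0.16 ± 0.33. Members of this family are similar in sequence and may share signal on a cDNA array.

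**Figure D1:**
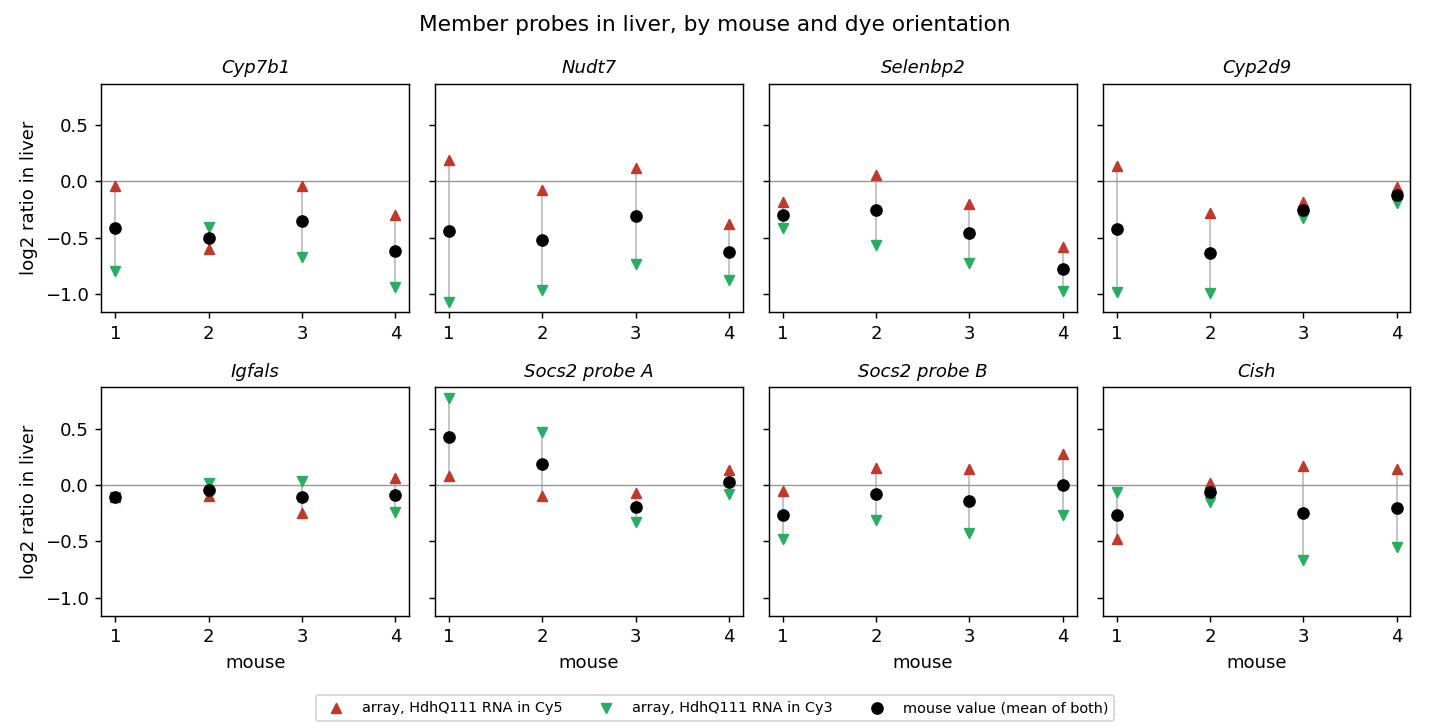
Log2 ratio in liver (y axis) of the 8 member probes by mouse (x axis). Upward triangles are arrays with HdhQ111 RNA in Cy5, downward triangles those with it in Cy3, and black circles the mean of both. Mouse values of Cyp7b1, Nudt7, Selenbp2 and Cyp2d9 lie between -0.78 and -0.122, and in these genes the Cy3 array is the lower one in every mouse except mouse 2 for Cyp7b1.

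The direct growth hormone targets had smaller liver values. Igfals, the acid labile subunit that holds insulin-like growth factors in the circulation (chromosome 17, 24877844 to 24882011), was at -0.11, -0.042, -0.106 and -0.088, with a mean of -0.087 ± 0.031 (SD, n = 4). The mice differed little, and the orientations gave like means, -0.101 in Cy5 and -0.073 in Cy3. The SD over its 8 liver arrays, 0.118, was lower than that of all but 0.241% of probes. By their mean, 36.6% of probes tested in liver lay lower than Igfals.

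Cish, an inhibitor that STAT5 induces and that binds the activated receptor (chromosome 9, 107296659 to 107302784), was at -0.268, -0.065, -0.249 and -0.203 in liver. Its mean was -0.20 ± 0.092 (SD, n = 4), with every mouse below 0. The Cy5 mean was -0.037, with 1 of 4 arrays below 0, and the Cy3 mean -0.356, with 4 of 4.

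Socs2, the inhibitor whose loss gives oversized mice (chromosome 10, 95383903 to 95417321), was measured by 2 probes (A and B in the plots) that did not agree in liver. The first probe, A, was at 0.427, 0.188, -0.199 and 0.027, a mean of 0.11 ± 0.26. The second was at -0.265, -0.078, -0.14 and 0.0055, a mean of -0.12 ± 0.11 (SD, n = 4 each). Mouse 1 had the highest value of the first probe and the lowest of the second, and the average of both probes lay near 0 at -0.0042. Socs2 thus had no settled direction in liver.

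Across the members, 6 of the 8 probes were below 0 in all 4 mice, where 13.0% of all probes with 4 liver values were. The liver ratios chose these genes, so nothing is read from that count. In the fit over all liver probes, limma with Benjamini-Hochberg adjustment called 0 of 20127 (0%), while 1409 had an unadjusted p under 0.05.

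In brain the same probes could be tested, because their brain values took no part in the choice. Of the 7 member probes tested, 0 passed limma's test, and over all 19325 brain probes 0 did (0%), with 677 at an unadjusted p under 0.05. The adjusted p was 0.998 for each of the 7, and the smallest unadjusted p, with limma, was 0.113 for the second Socs2 probe. Igfals had a pair of arrays in 2 mice only and was not tested.

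Cyp7b1, which is also made in brain, had brain values of 0, 0.165, 0.401 and -0.04 and a mean of 0.13 ± 0.20. Nudt7 averaged -0.19 ± 0.32, with 2 mice on each side of 0. Selenbp2 averaged -0.072 ± 0.15 (SD, n = 4 each). The brain arrays of Selenbp2 split wholly by dye, between -0.986 and -0.351 in Cy5 and between 0.026 and 1.15 in Cy3, so that its mean near 0 joined opposite readings. On the liver arrays of Selenbp2 the Cy5 readings were instead the higher ones.

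Both probes of Socs2 were above 0 in brain in every mouse that had both arrays. The first read 0.163, 0.079, 0.348 and 0.128 (mean 0.18 ± 0.12, n = 4), and the second 0.360, 0.215 and 0.247 in mice 1, 3 and 4 (mean 0.27 ± 0.076, n = 3). In mouse 2 the second probe had a Cy3 array alone, at -0.39, and with that array counted its brain mean was 0.108. Of all probes with 4 brain values, 6.02% were above 0 in every mouse. On the Cy3 arrays alone the first probe averaged -0.119 and the second 0.029. Cish in brain ranged from -0.283 to 0.72, with a mean of 0.14 ± 0.42 (n = 4).

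Cyp2d9 and Igfals scattered in brain. Cyp2d9 had 8.26 in mouse 1, from a floor ratio of 16.84 on its Cy5 array, and -0.72, 0.106 and -1.33 in mice 2 to 4. The SD over its 8 arrays was 0.414 in liver and 6.27 in brain. Igfals was at 0.88 in mouse 1 and -1.10 in mouse 4, with an SD over arrays of 0.118 in liver and 1.53 in brain. Over all probes the median of this SD was 0.48 in liver and 0.55 in brain, so both genes scattered less than the median probe in liver and more in brain. The value of Cyp2d9 in brain rests on its floor ratio, and on the Cy3 arrays, which had none, its SD was 0.425 in liver and 1.05 in brain. The other members were not alike in this: the SD over arrays was 0.505 in liver and 0.437 in brain for Nudt7, 0.336 in liver and 0.287 in brain for Cyp7b1, and 0.356 in liver and 0.352 in brain for the first Socs2 probe. It was lower in liver for Selenbp2 (0.334 in liver, 0.709 in brain), Cish (0.326 in liver, 0.488 in brain) and the second Socs2 probe (0.288 in liver, 0.436 in brain). Levels of tissue markers cannot be read from ratios, so the tissue labels were not checked by level.

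**Figure D2:**
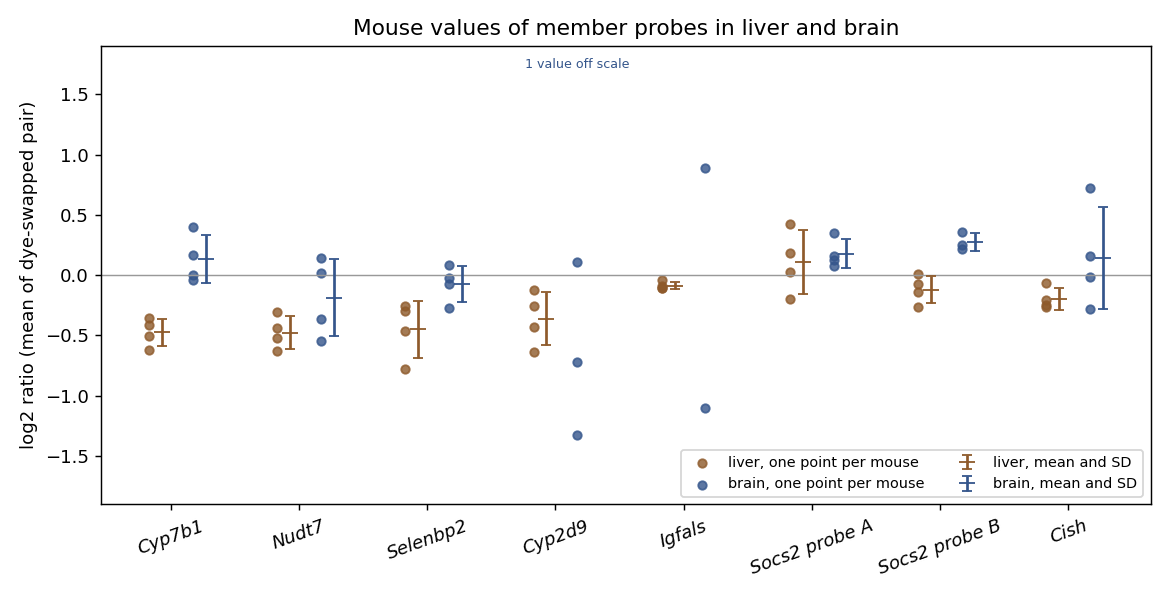
Log2 ratios of each member probe in liver (brown, left) and brain (blue, right), 1 point per mouse, with the mean and SD beside the points except for Cyp2d9 and Igfals in brain. The Cyp2d9 value of 8.26 in brain is off the scale, and Igfals has 2 mice there. For Cyp7b1, which was chosen by its liver values, these values, -0.62 to -0.356, lie below the brain values, -0.04 to 0.401.

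The liver-minus-brain difference within each mouse is given as a description, since it holds the liver values. For Cyp7b1 it was -0.417, -0.671, -0.757 and -0.58, a mean of -0.61 ± 0.15 (SD, n = 4 mice). The Cyp7b1 mouse values of liver and brain did not overlap, but its liver values chose it. The share of all probes without overlap was not counted, so nothing is read from this. By orientation the Cyp7b1 difference was -0.199 on Cy5 arrays, where the tissues overlapped, and -1.01 on Cy3 arrays, where they did not. For Selenbp2 it was -0.379, -0.185, -0.189 and -0.755, a mean of -0.38 ± 0.27, but 0.42 on Cy5 arrays and -1.17 on Cy3 arrays. Nudt7 averaged -0.29 ± 0.43 with mouse 3 above 0, and Cish -0.34 ± 0.49 with mouse 2 above 0. The second Socs2 probe was lower in liver in 3 of 3 mice, at -0.41 ± 0.20, while the first was at -0.069 ± 0.35. Over all 19055 probes limma called 1 difference (0.00525%), the pituitary hormone Prl (4.53 ± 0.23, SE, adjusted p = 0.00238), at 0.24 in liver and -4.28 in brain. In limma's fit with mice as blocks the 1 call was instead the hormone precursor Pomc (adjusted p = 0.0435), while the adjusted p of Prl was 0.168. Both are named because they were called, after their values were seen. Growth hormone itself, Gh, was at -4.86, -2.29, -5.06 and -5.20 in the brains of mice 1 to 4, with an adjusted p of 0.626 at gene level by limma. All 5 measured anterior pituitary markers were below 0 in brain, with a median of -2.75. Pituitary genes first led to the row shift, so their values are no separate support for it, and how far they bear on the liver values was not tested.

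The mice were not ordered alike by all members. Cyp7b1, Nudt7 and Selenbp2 had their lowest value in mouse 4, from -0.78 to -0.62, as did Selenbp1. Cyp2d9 had its highest value there (-0.122) and its lowest in mouse 2 (-0.636). The other P450 and conjugation enzymes followed the order of Cyp2d9, with mouse medians of -0.354, -0.546, -0.279 and 0.123 over 11 genes, among them Cyp2d10, Cyp2d22 and Cyp2d26. Hepatocyte secreted proteins had -0.279, -0.196, -0.195 and -0.0067 over 17 genes. In mouse 4 Cyp7b1, Nudt7 and Selenbp2 thus stood farthest from these hepatocyte genes, and in mouse 2 Cyp7b1 (-0.506) and Nudt7 (-0.524) lay beside the P450 median. With 4 mice these orders are a description.

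**Figure D3:**
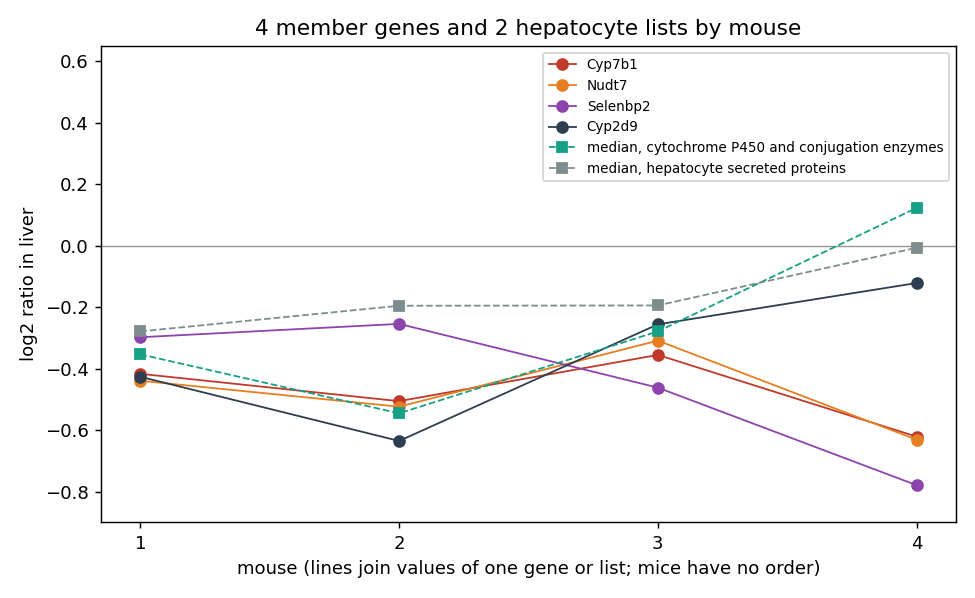
Liver log2 ratio (y axis) of 4 member genes by mouse (x axis), beside the median of 11 P450 and conjugation enzymes and of 17 hepatocyte secreted proteins. In mouse 4 the medians are 0.123 and -0.0067, while Cyp7b1, Nudt7 and Selenbp2 lie between -0.78 and -0.62.

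Further male-biased liver genes were listed to see whether the low values of the members were shared. Of 13 measured genes, 9 were below 0, with a median of -0.17, against 56.7% of all named genes below 0 and a median of -0.031. After Benjamini-Hochberg adjustment over all 8828 genes limma called 0 of the 13, and 0% of all genes. Without adjustment 4 had a p under 0.05 in the lower direction and 1 in the higher, where 4.96% and 2.64% of all genes did. Selenbp1 is among both the 9 and the 4, and its probe may share signal with the member Selenbp2. The lowest were Selenbp1, Susd4 at -0.48 ± 0.55 and Bcl6, a repressor that opposes STAT5 in male liver, at -0.475 ± 0.45. Susd4 and Bcl6 had their lowest value in mouse 1, at -1.22 and -1.11. The Cy5 and Cy3 means were -0.85 and 0.088 for Susd4, and -0.154 and -0.80 for Bcl6. The highest were Dntt at 1.20 ± 1.16 (n = 3), Cspg5 at 0.38 ± 0.33 and Moxd1 at 0.15 ± 0.56 (n = 4). They too had their extreme value in mouse 1, at 2.47, 0.80 and 0.76. The Cy5 and Cy3 means were 0.265 and 2.05 for Dntt, 0.089 and 0.68 for Cspg5, and 0.68 and -0.381 for Moxd1. In brain 7 of the 13 were below 0, where 43.0% of genes were, with a median of -0.0051. The liver median of these genes was 0.066 on the Cy5 arrays and -0.381 on the Cy3 arrays, so its sign depended on the orientation. Low genes at an unadjusted limma p under 0.05 were also found in hepatocyte lists not made for male bias. There were 4 of 17 secreted proteins and 3 of 11 P450 and conjugation enzymes, against 0 of 10 female-biased and 1 of 19 signalling genes. The count is thus not particular to male-biased genes.

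Female-biased liver genes, which steady growth hormone raises, had 6 of 10 measured genes below 0 and a median of -0.016 in liver, near the 56.7% of all named genes below 0. None of the 10 passed limma's test, with 0 at an unadjusted p under 0.05, where 4.96% of all genes did in the lower and 2.64% in the higher direction. Their lowest values were Acot3 at -0.22 ± 0.38, the fatty acid hydroxylase Cyp4a14 at -0.16 ± 0.60 and Trim24 at -0.14 ± 0.54. The highest were Prom1 at 0.12 ± 0.12, Cyp2b10 at 0.083 ± 0.28 and Rtn4 at 0.031 ± 0.28. The liver median of the female-biased list was 0.10 on the Cy5 arrays and -0.24 on the Cy3 arrays, so its value near 0 joined opposite readings.

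The signalling pathway from receptor to IGF binding proteins had 9 of 19 measured genes below 0, against 56.7% of all named genes, and a median of 0.020 in liver, and 0 passed limma's test. This median too joined opposite readings, 0.12 on the Cy5 arrays and -0.19 on the Cy3 arrays. Without adjustment 1 lower and 1 higher gene of the 19 had a p under 0.05, close to the shares of all genes (4.96% and 2.64%), so this count is no result about the pathway. The higher one was Stat5b, the transcription factor that carries the male growth hormone signal, at 0.253, 0.563, 0.237 and 0.274 in mice 1 to 4 (mean 0.33 ± 0.16). Its mean was 0.70 on the Cy5 arrays and -0.039 on the Cy3 arrays. The lower one was Igfbp4, an IGF binding protein, at -0.39 ± 0.23. On the Cy5 arrays Igfbp4 averaged 0.007 and on the Cy3 arrays -0.79, so its low value rested on the Cy3 arrays. The kinase Jak2 was at 0.37 ± 0.66 and the phosphatase Ptpn6 at 0.53 ± 1.01, each with its highest value in mouse 1. Jak2 averaged -0.0135 on the Cy5 arrays and 0.75 on the Cy3 arrays. Ptpn6, averaged over 4 probes, was at 2.04, 0.078, 0.113 and -0.102 in mice 1 to 4. Its mean was 1.02 on the Cy5 arrays and 0.044 on the Cy3 arrays, so it rested on mouse 1 and the Cy5 orientation. Whether a floor ratio was part of it was not tested. Igfbp3, which binds IGF together with Igfals, was at -0.30 ± 0.57 (n = 3), and the insulin receptor Insr at -0.25 ± 0.49. Ghr and Igf1 were listed too but were not among the 19 measured genes, so nothing can be read for them. In liver Gh was at -2.14 ± 3.89 with a floor ratio in mouse 1, Ghrl at -0.25 ± 0.20 and Sst at 0.19 ± 0.42.

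Genes that share a function or a cell with the members gave the following liver values, to be read against the 56.7% of all named genes below 0. All 11 measured P450 and conjugation enzymes were below 0, with a median of -0.278, and 15 of 17 hepatocyte secreted proteins were, with a median of -0.18. The bile acid and oxysterol list, with Cyp7b1, had 6 of 8 below 0 and a median of -0.085. The peroxisome list, with Nudt7, had 9 of 13 below 0, not far from that share, and a median of -0.12. Igfals (-0.087) and the second Socs2 probe (-0.12) were smaller in size than the median of the hepatocyte proteins, and Cish (-0.20) slightly larger. On the Cy5 arrays Igfals (-0.101) was instead below the median of these proteins. Cyp7b1, Nudt7, Selenbp2 and Cyp2d9 were larger in size than the median of the P450 enzymes. Cyp2d9 (-0.36) still lay within the range of that list, whose lowest gene was at -0.38. No test of these contrasts was made, since the members were chosen by the values. All these lists also shifted with the dye orientation, from a median of 0.105 on Cy5 to -0.446 on Cy3 arrays for the secreted proteins and from 0.032 to -0.54 for the P450 enzymes.

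**Figure D4:**
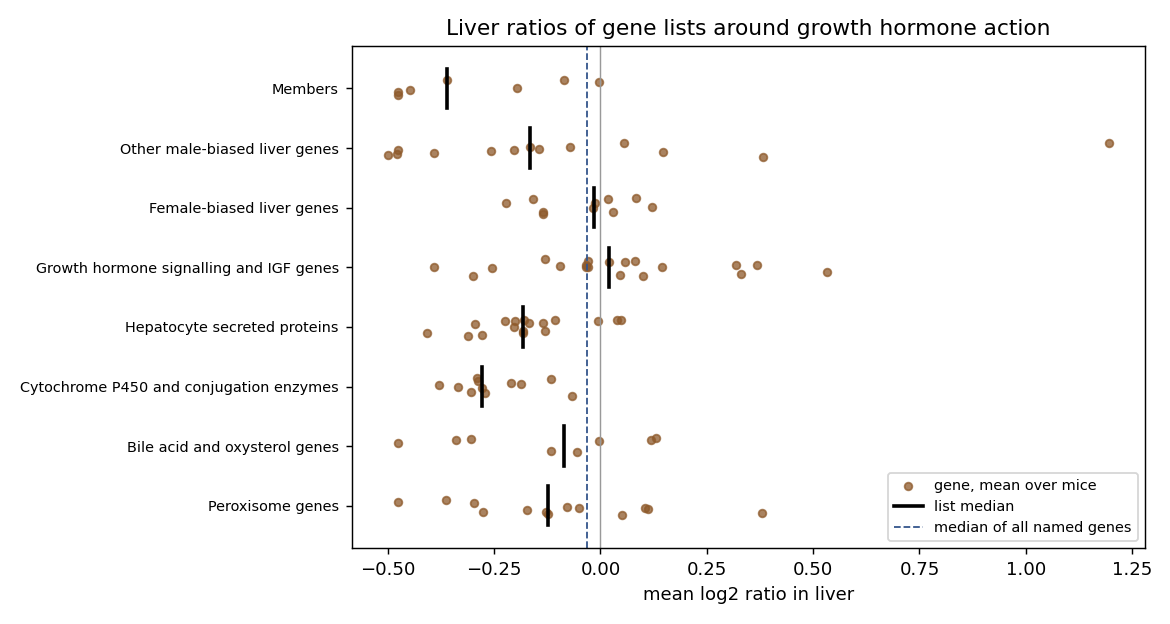
Mean log2 ratio in liver of each measured gene (points, x axis) in 8 gene lists (rows), with each list's median (black bar) and the median of all named genes (dashed line, -0.031). The bile acid list includes Cyp7b1 and the peroxisome list Nudt7. P450 enzymes lie wholly below 0 and signalling genes on both sides.

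Markers of other cells in liver had medians of -0.057 for Kupffer cells (4 measured), 0.10 for stellate cells (6), -0.11 for endothelium (5), 0.013 for cholangiocytes (5), 0.19 for exocrine pancreas (3), -0.21 for blood (5), 0.11 for neurons (5) and 0.16 for anterior pituitary (5). Hepatocyte markers had a median of -0.20 over 5 genes, all below 0, where 56.7% of all named genes were. These 5 genes are also among the secreted proteins above, so they are no separate observation. Their median was 0.10 on the Cy5 arrays and -0.477 on the Cy3 arrays, so its sign depended on the orientation. The part of cell makeup in the members' values was not tested.

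The genes whose 8 mouse values ran most like the mean of the members were Brap, Prpf6, Ppp2r5d, Poc1b and Mcmbp, with Pearson's r of 0.974 to 0.986 over 4 liver and 4 brain values and among 7497 genes. That mean was 1.36 in the brain of mouse 1 through the Cyp2d9 floor ratio, and 3 of the 5 genes had a floor ratio too. With floor ratios left out it was 0.205 there, and the closest genes were Plpp3, Myo10, Myo5b, Aspscr1 and Ces3b (r of 0.929 to 0.961, 7430 genes). Of these, the carboxylesterase Ces3b was low in liver (-0.43) and not in brain (0.20).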

How the data were processed

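Brain and liver of 4 HdhQ111 heterozygous mice were measured on 16 2-colour arrays, 2 per mouse and tissue. The authors deposited normalized log2 ratios, with base 2 assumed because no header states it, for 20794 probes; the columns are not centred, and background correction, normalization and spot filters are not given in the sources used here. Dyes and mice were taken from the labels. Pair means of brain and liver did not correlate over 15318 probes (Spearman's rho -0.029), while dye differences did (0.418), so the columns were taken as already turned one way. The sign, likely HdhQ111 over wildtype, is stated nowhere.

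The platform table gave 12771 probes a symbol, all matched to RefSeq by Entrez number, and names were shifted by 11 rows, which named 12760 rows. A mouse's value needed both arrays and a probe at least 3 mice. Means were tested against 0 with limma 3.58.1 (R 4.3.3; lmFit, eBayes) and Benjamini-Hochberg adjustment at 0.05, checked on simulated data, in each tissue apart. For lists the probes of a gene were averaged. Liver minus brain was fitted over the 8 mouse values without and with the mouse as a block. By the labels both tissues came from the same mice. The deviations of a mouse's 2 tissues from the tissue means had a Spearman's rho of 0.071, -0.0036, 0.103 and 0.024 for mice 1 to 4. Between a mouse's brain and the livers of the other mice the mean rho was -0.031, 0.0092, -0.027 and -0.012. The match was thus weak, and in mouse 2 no better than with other mice.

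The members and lists were chosen with earlier results of these data known. Named genes were the members, the 3 lowest and 3 highest genes in liver of the male-biased, female-biased, signalling and hormone lists with Jak2, Stat5b, Igfbp3 and Gh, relatives of members, and the 5 genes most like the members' mean. Alternatives were array centring, floor ratios (over 10 in size) set to missing, single orientations, single arrays, averaged probes, all 4 mice, robust eBayes, each mouse left out and names with no shift. Whether replicate mice shared litters is not stated, so p-values measure the spread between these mice.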

Additional observations from a re-analysis of the deposited data

Results flagged for a closer look

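Among 4 mice a value was singled out where its gap to the next exceeded Dixon's limit, which chance passes in about 1 of 20 groups. In brain, Cyp2d9 stood at 8.26 in mouse 1, and Gh at -2.29 in mouse 2 was above the other mice. Prom1 was lowest in mouse 2 in brain at -0.054. In liver, Gh stood at -7.96 in mouse 1 through a floor ratio. Trim24 at -0.94, Insr at -0.99 and Ptpn6 at 2.04 also had their extreme value in liver in mouse 1. The Cy3 liver array of that mouse had the widest interquartile range (1.28). The high mean of Ptpn6 lay instead on the Cy5 arrays, at 1.02 against 0.044 on the Cy3 arrays. Whether a floor ratio was part of it was not tested. Stat5b was highest in mouse 2 at 0.56, and Cyp4a14 in mouse 4 at 0.74. Liver minus brain differed for Prl by 4.53, past limma's test.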

How the results depend on the processing

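In liver 7 of 8 member probe means stayed below 0 with arrays centred, floor ratios missing, 1 array enough or any mouse left out. On the Cy5 arrays alone 6 of 8 did, and on the Cy3 arrays alone 7 of 8, with 5 of the 8 moved by over 1 SD each time. With names not shifted 4 of 8 were below 0. No brain member passed in any setting (adjusted p 0.371 or more). Brain means changed sign on Cy5 arrays for Cyp7b1 (-0.047), on Cy3 arrays for Selenbp2 (0.50), Cyp2d9 (-0.695) and the first Socs2 probe (-0.119), for Cyp2d9 with floor ratios missing (-0.65), and for Igfals (-0.11 over 2 mice, untested) on Cy3 arrays (0.55) and with 1 array enough (0.143). With a mouse left out, Igfals in brain ranged from -1.10 (without mouse 1) to 0.88 (without mouse 4), Cish in brain ranged from -0.047 (without mouse 3) to 0.287, and Cyp2d9 from -0.65 (without mouse 1) to 2.55. The liver-minus-brain mean on Cy5 and on Cy3 arrays was 0.42 and -1.17 for Selenbp2, -0.199 and -1.01 for Cyp7b1, and -0.47 and 0.33 for the first Socs2 probe. The Cyp2d9 change came from its 1 floor ratio; the other causes were not tested. Brain probes called were 2, both unnamed, on Cy5 arrays, 1 (Prl) with 1 array enough and 0 to 1 with a mouse left out (Gh, without mouse 2). Liver probes called were 0 in every setting run. Liver-minus-brain calls were 2 with floor ratios missing (Prl and Pomc) and 0 with all 4 mice required, where Prl was not tested. With a mouse left out they were 1 without mouse 1 (Prl), 1 without mouse 2 (Pomc) and 0 without mouse 3 or 4. Leaving out mouse 2, 3 or 4 left Prl with 2 brain values and so untested. On Cy5 arrays the 1 call was an unnamed probe, and with the replicate block on mouse it was Pomc. Prl was not called in these last 2 settings, so it is not a stable call. The alternative with floor ratios missing for the most similar genes was chosen after seeing the data. Without spot intensities, what signal over background limits is unknown.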
